A study of Mus musculus with 18 samples.

Results

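The 10 genes described here are genes of the surface and granules of myeloid cells: the integrin chains Itgam and Itgax, the growth factor receptors Csf1r and Csf3r, the receptors Fcgr3 and Cd14, and the stored or abundant proteins Lyz2, Mpo, Elane and S100a8. They were chosen by name. Each was taken with 10 kb on either side of its gene body, and every listed methylation region that touched this window by at least 1 bp was counted as its own. On mouse build mm10 the windows held 125 of the 411770 regions listed for splenic CD11b+ cells, and 154 of the 553467 listed for splenic CD4+ cells. Because the regions of the 2 cell types were drawn separately, the cell types were set side by side on the stretches covered by a region of each, called shared segments, of which the genome held 279942 and the windows those described below. The windows of Itgam and Itgax overlap, so 3 regions of each cell type and 1 shared segment belong to both and were counted once in the totals.

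The DNA came from spleens of mice on a C57BL/6 background, in which CD11b+ cells and CD4+ cells were isolated on magnetic columns, and was read by whole-genome bisulfite sequencing. One genotype was Dnmt3a+/+ (WT). The other was heterozygous for the R878H change in Dnmt3a, a de novo DNA methyltransferase, switched on from a floxed allele by Vav1-iCre, which acts throughout the blood system; the mutation is therefore carried by the T cells as well as by the myeloid cells. The mice were young adults matched for sex and age, with 4 mice per group in each cell type, and the CD11b+ R878H/+ group has 6 library entries for its 4 mice. Whether the WT mice carried Cre, and whether both cell types came from the same animals, is not given in the sources used here. The values are the authors' means over the mice of a group, so no spread between mice, interval or test across mice could be computed, and coverage behind a value is unknown. Neither column of means names its group: the first was read as WT, and every direction below rests on that reading.

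CpG methylation is usually high across mammalian genomes and low at active promoters and enhancers. The genes of a blood lineage lose methylation at their regulatory DNA as cells commit to that lineage, while in cells of another lineage the same stretches tend to remain methylated. CD11b, the product of Itgam, pairs with the beta-2 integrin chain on monocytes, macrophages, neutrophils and some dendritic and NK cells. The magnetic fraction is therefore a mixture of cell types, not all of them myeloid. CD4+ T cells do not make most of the proteins examined here. The series holds no RNA, so expression of the genes was not measured, and a different share of some cell type in a fraction cannot be told apart from a different methylation level per cell.

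Sequences of 5 stretches described below are printed here, 4 from places where WT CD11b+ cells were lower and 1, in Fcgr3, where WT CD4+ cells were lower and CD11b+ cells lost methylation in R878H/+ mice; the CpGs are in capitals, 5′ to 3′ on the strand of the named gene, from GRCm38. The first is the end of a longer region just before the start of Itgax, at chr7:128129303-128129502. The second lies in an intron of Fcgr3 at chr1:171060581-171060688, on the minus strand. The next pair are neighbouring parts of one coding exon of Mpo, at chr11:87797379-87797452 and chr11:87797453-87797622, which carry 5 and 9 whole CpGs. The last, at chr10:79880462-79880612, lies in the window of Elane but inside the body of its neighbour Prtn3.
Itgax start: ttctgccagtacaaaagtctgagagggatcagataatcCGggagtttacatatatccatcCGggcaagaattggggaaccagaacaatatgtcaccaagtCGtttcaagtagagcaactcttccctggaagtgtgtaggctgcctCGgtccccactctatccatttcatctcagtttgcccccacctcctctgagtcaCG
Fcgr3 intron: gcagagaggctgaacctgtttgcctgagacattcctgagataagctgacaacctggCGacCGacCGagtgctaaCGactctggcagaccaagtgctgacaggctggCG
Mpo exon, first part: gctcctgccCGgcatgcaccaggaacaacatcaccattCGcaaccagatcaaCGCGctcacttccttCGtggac
Mpo exon, second part: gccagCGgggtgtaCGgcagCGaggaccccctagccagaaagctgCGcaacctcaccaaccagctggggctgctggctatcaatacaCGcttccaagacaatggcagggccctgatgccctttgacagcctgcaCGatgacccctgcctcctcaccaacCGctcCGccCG
Elane window, in Prtn3: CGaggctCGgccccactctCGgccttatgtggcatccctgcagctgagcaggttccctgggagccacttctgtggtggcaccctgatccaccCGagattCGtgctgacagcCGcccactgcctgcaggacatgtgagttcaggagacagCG

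Across the windows most of the myeloid genes were less methylated in CD11b+ than in CD4+ cells. Itgam itself did not show this, and Lyz2, at 1.82 points, differed by less than the median protein-coding gene. Over all shared segments the difference was largest at Mpo, Itgax and Elane, an order that changed with a stricter overlap. Averaged over the shared segments of a gene, with each segment weighted by its CpGs, 9 of the 10 genes were lower in WT CD11b+ cells, against a background of 74.1% of 18490 protein-coding genes with a shared segment. Mpo stood at 68.3% in CD11b+ and 84.0% in CD4+ cells, a difference of 15.7 percentage points. For Itgax the levels were 55.0% and 70.4%, and for Elane 51.4% and 64.2%. Itgam was at 81.1% in CD11b+ cells and 79.4% in CD4+ cells, slightly the other way. The median difference over all protein-coding genes was 2.09 points.

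**Figure D1:**
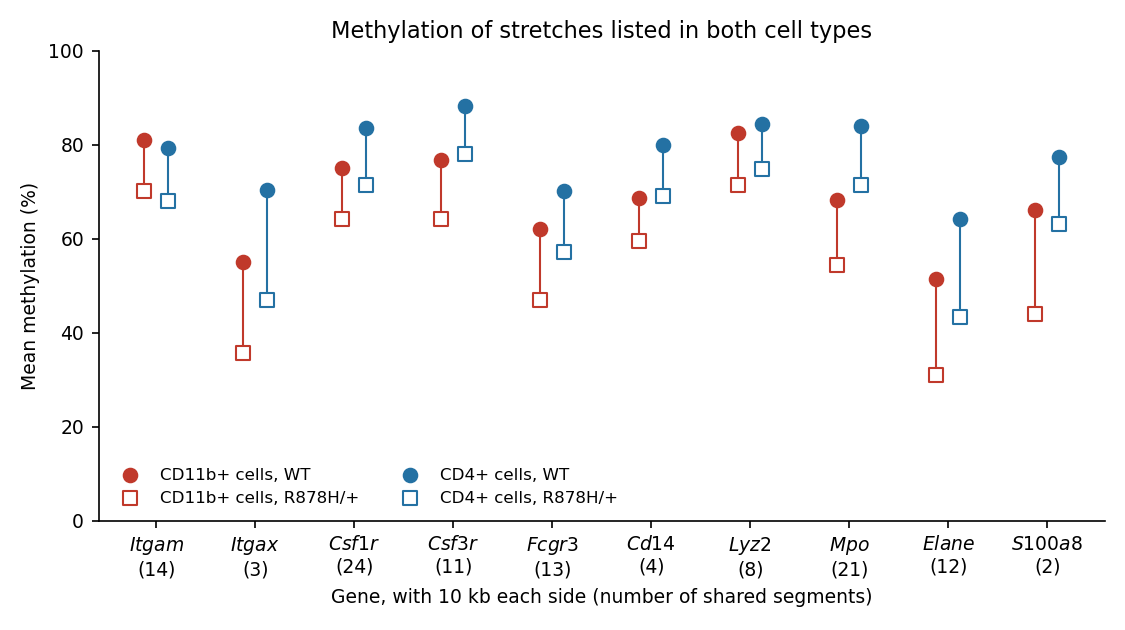
Mean methylation (%, y axis) of each gene with 10 kb each side (x axis, number of shared segments in brackets), as CpG-weighted averages of the authors' group means; red is CD11b+ and blue CD4+ cells, filled circles WT and open squares R878H/+, joined by a line. The red points lie below the blue ones of the same genotype for 9 genes, the exception being Itgam, and the squares lie below the circles throughout; no error could be drawn because the values per mouse were not given.

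Seen segment by segment, the difference was concentrated in a minority of stretches. The median shared segment of the windows was 4.93 points lower in WT CD11b+ than in WT CD4+ cells, against 1.14 points over all shared segments of the genome. In the windows 73 segments were lower and 38 higher in CD11b+ cells (background of lower segments 60.0%), and 27 were lower by at least 20 points, 24.3% against a background of 6.63%. The reverse, at least 20 points lower in CD4+ cells, was seen in 2 segments (background 3.38%). The 27 segments belonged to 7 genes, with 8 in Mpo, 6 in Csf1r, 4 in Elane, 3 each in Csf3r and Fcgr3, 2 in Itgax and 1 in Cd14. Itgam, Lyz2 and S100a8 had none. By position, 8 lay upstream, 7 within 1 kb of a start of a coding transcript, and of the rest 6 touched an exon, 4 were intronic and 2 lay downstream. Counting also those near a start, 10 touched coding sequence of the gene. Of the 27, 4 lay in the body of another gene. Some neighbouring segments share the mean of 1 longer region, so the 27 are not separate measurements. In 3 of the 27 the regions of the 2 cell types met over fewer than 50 bp, so their values describe neighbouring rather than identical stretches. Asking for segments of at least 50 bp left 24, and asking that each region overlap the other by at least 50% left 9 of 38 segments, a similar share.

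**Figure D2:**
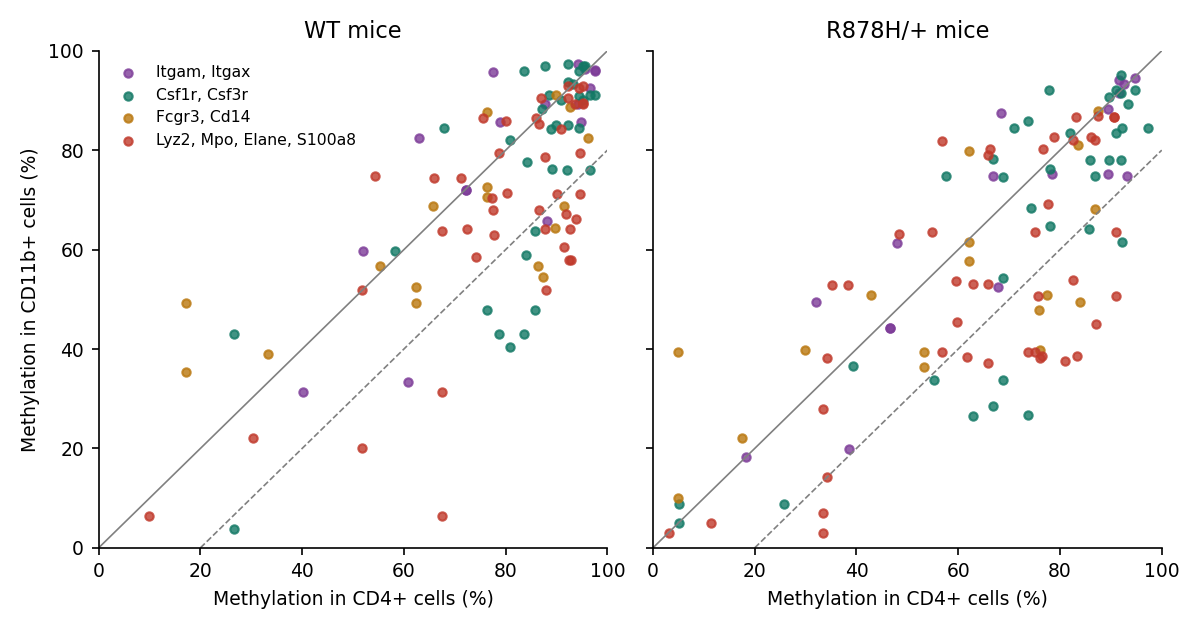
Methylation (%) of the shared segments of the 10 windows in CD4+ cells (x axis) and CD11b+ cells (y axis), WT left and R878H/+ right, each point 1 segment and its colour the group of genes. The solid line marks equal levels and the dashed line a level 20 points lower in CD11b+ cells; 27 WT and 26 R878H/+ segments lie on or under the dashed line, and of the WT ones 8 are of Mpo and 4 of Elane.

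In R878H/+ mice the order of the cell types was kept at a lower level. The median difference between cell types was 4.30 points over the segments of the windows, with 0.987 points over all segments, and 26 segments were at least 20 points lower in R878H/+ CD11b+ than in R878H/+ CD4+ cells (23.4%, background 8.42%), with 2 the other way round (background 4.91%). Both genotypes passed this limit at 21 segments of the windows, beside the 27 that passed it in WT mice. Genome-wide both passed it at 14474 segments, beside 18561 in WT mice, which is a like share. Among the 27 segments that were lower in WT CD11b+ cells, the R878H/+ CD4+ level had come down to or under the WT CD11b+ level in 1, a share of 3.70% against a background of 13.1%. That segment is the intronic stretch of Csf1r described below. At the other 26 segments the mutant CD4+ cells were more methylated than WT CD11b+ cells.

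Methylation was lower in R878H/+ than in WT cells at nearly every listed region of the windows, as it was across the genome. In CD11b+ cells 8 of 125 regions had the higher mean in R878H/+ mice and the rest the lower one (background of lower regions 93.4%), the median region falling from 82.5% to 71.7%. In CD4+ cells this held for 149 of 154 regions (background 95.5%), with medians of 88.2% and 77.8%. The median loss, WT minus R878H/+, was 9.34 points in CD11b+ and 9.36 points in CD4+ cells, against 6.55 and 6.85 points over all listed regions. Losses over 20 points, at any q-value, occurred in 16 CD11b+ regions (12.8%, background 7.00%) and 22 CD4+ regions (14.3%, background 6.23%). Regions starting between 50% and 80% lost more than fully methylated ones, in the windows and in the genome, and the windows held more such regions: 31.2% against 19.1% in CD11b+ cells, and 22.1% against 16.6% in CD4+ cells. Within this band the median loss in the windows was 15.9 points in CD11b+ cells (all regions 13.4) and 15.5 points in CD4+ cells (all regions 13.1). How much of the larger loss in the windows goes with starting level was not tested.

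A differentially methylated region (DMR) was defined as more than 10 CpG positions, a difference over 20 points and a q-value of the authors' region caller under 0.05. By this definition 1 of the 125 CD11b+ regions was a hypomethylated DMR, 0.8% against a background of 0.576%, and 1 of the 154 CD4+ regions, 0.649% against 0.665%. No window held a hypermethylated DMR (background 0.0126% in CD11b+ and 0.000542% in CD4+ cells). Both DMRs lie at the same place in Csf1r. Of the losses over 20 points, 7 of the 16 in CD11b+ and 9 of the 22 in CD4+ cells were in regions of exactly 10 CpG positions. The definition leaves such regions out. Genome-wide they held 15497 of 28833 such losses in CD11b+ and 17437 of 34462 in CD4+ cells, larger shares than in the windows.

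**Figure D3:**
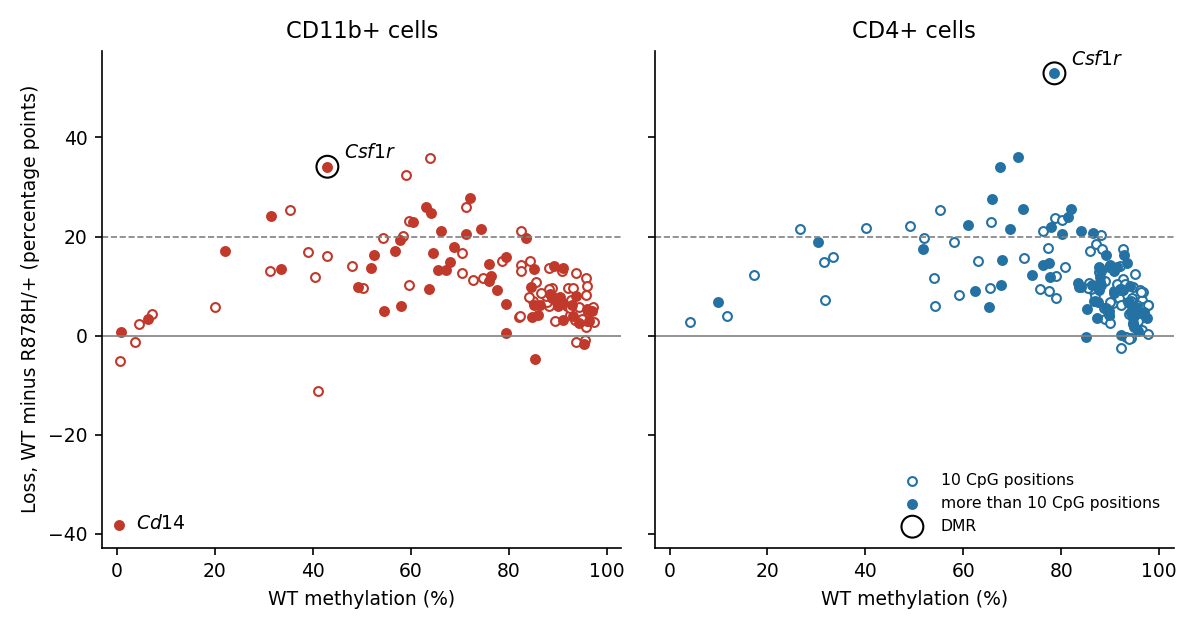
Loss of methylation in R878H/+ mice (percentage points, y axis) against the WT level (%, x axis) for each listed region of the 10 windows, CD11b+ left and CD4+ right; open circles have 10 CpG positions, filled ones more, large rings mark DMRs and the dashed line is at 20 points. The ringed Csf1r regions lost 34.1 and 52.9 points, and 1 Cd14 region in CD11b+ cells gained 38.2 points.

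The integrin genes differed from each other. Itgam, on chromosome 7 at 128062640-128118491, had 14 shared segments, of which 7 were lower and 7 higher in WT CD11b+ cells, and its gene-level difference was smaller than or opposite to that of most genes, with 11.5% of 15858 genes having at least 3 shared segments below it. Near its start the CD11b+ table lists the stretch from -780 to -161 bp relative to the 5′ end of the gene, at 79.4% in WT and 78.8% in R878H/+ mice. The nearest CD4+ region lay on the other side of the start, from 283 to 1042 bp, at 81.9% in WT and 56.4% in R878H/+ mice. These regions do not overlap, so the cell types could not be compared at the Itgam start. The widest WT gaps of Itgam were both higher in CD11b+ cells: upstream from -4523 to -4173 bp, 82.5% against 63.1%, and at an exon from 7825 to 8089 bp, 95.7% against 77.5%. In CD11b+ cells the largest loss of the window was 27.8 points, from 72.0% to 44.2%, between Itgam and Itgax, and the CD4+ region there went from 72.3% to 46.6%. Both cell types thus had a like level there in each genotype.

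Itgax, which encodes the CD11c chain used by dendritic cells and some macrophages, lies next to it at 128129547-128150657. Of its 3 shared segments the 2 near the start differed. The other, upstream from -6508 to -6363 bp, had 72.0% in WT CD11b+ and 72.3% in WT CD4+ cells. No segment past 1094 bp is shared, so the cell types could not be compared along most of the body. From -583 to -45 bp, the region whose last bases are printed above, WT CD11b+ cells had 33.4% and WT CD4+ cells 60.9%. In R878H/+ mice the same stretch had 19.9% and 38.6%. From 805 to 1094 bp the levels were 65.7% and 88.2% in WT and 52.4% and 67.9% in R878H/+ mice. At both stretches the mutant CD4+ level lay above the WT CD11b+ level. The gene-level difference of 15.4 points, over 3 segments, was larger than in 99.2% of genes. In the gene body alone 1 segment remains, the one from 805 to 1094 bp, with 22.5 points. The CD4+ region before the start, from -1696 to -878 bp, went from 87.9% in WT to 76.9% in R878H/+ mice and has no CD11b+ counterpart. Regions in the later exons of Itgax were highly methylated in CD11b+ cells, at 88.2% to 96.3% in WT mice. The CD4+ regions of that part do not overlap them, and had 65.4% from 2862 to 3485 bp and 96.8% from 21064 to 21649 bp. Over all listed regions, which differ between the cell types, the window had 81.4% in WT CD11b+ and 72.9% in WT CD4+ cells.

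Csf1r, the receptor for M-CSF and IL-34 on which monocytes and macrophages depend, carried the DMR found in both cell types. In CD11b+ cells the region on chromosome 18 at 61107690-61108481 went from 43.0% in WT to 8.87% in R878H/+ mice, with 13 CpG positions and a q-value of 1.2e-05. In CD4+ cells the region at 61107690-61108140 went from 78.6% to 25.7%, with 13 CpG positions and a q-value of 3e-06. It lies in intron 2 of the main transcript, 1838 bp past the nearest start of a coding transcript. Intron 2 of Csf1r is known for the Fms intronic regulatory element (FIRE), an enhancer used in macrophages; its exact position was not looked up here. The CD4+ loss of 52.9 points was the largest among the CD4+ regions of the 10 windows. It brought the mutant CD4+ cells under the WT CD11b+ level.

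The stretch next to the DMR had low methylation in CD11b+ cells of either genotype. From 8030 to 8107 bp past the 5′ end of the gene, CD11b+ cells had 3.70% in WT and 4.95% in R878H/+ mice. The CD4+ region that covers it, from 7742 to 8107 bp, went from 26.7% to 5.10% (q-value 1), so in R878H/+ mice both cell types were at a like level. Further on, from 8530 to 8838 bp, the loss was smaller and the cell types stayed apart: CD11b+ cells had 42.9% in WT and 26.8% in R878H/+ mice, CD4+ cells 83.7% and 73.8%. From 3665 to 4030 bp, a region 944 bp from the nearest start of a coding transcript, WT CD11b+ cells had 97.0%. WT CD4+ cells had 95.6% at 3747 bp and 87.8% at 4030 bp. From 5775 to 6172 bp, CD11b+ cells had 75.9% and 64.8% and CD4+ cells 92.0% and 78.0%. Upstream of the gene, from -2627 to -2299 bp, WT CD11b+ cells had 47.9% against 76.3% in CD4+ cells. The last part of the body was alike in both: near the 3′ end WT CD11b+ cells had 59.7% and WT CD4+ cells 58.2%. The gene-level difference of 8.49 points rests on few of its 24 segments, and the plain median over them was 2.08 points.

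**Figure D4:**
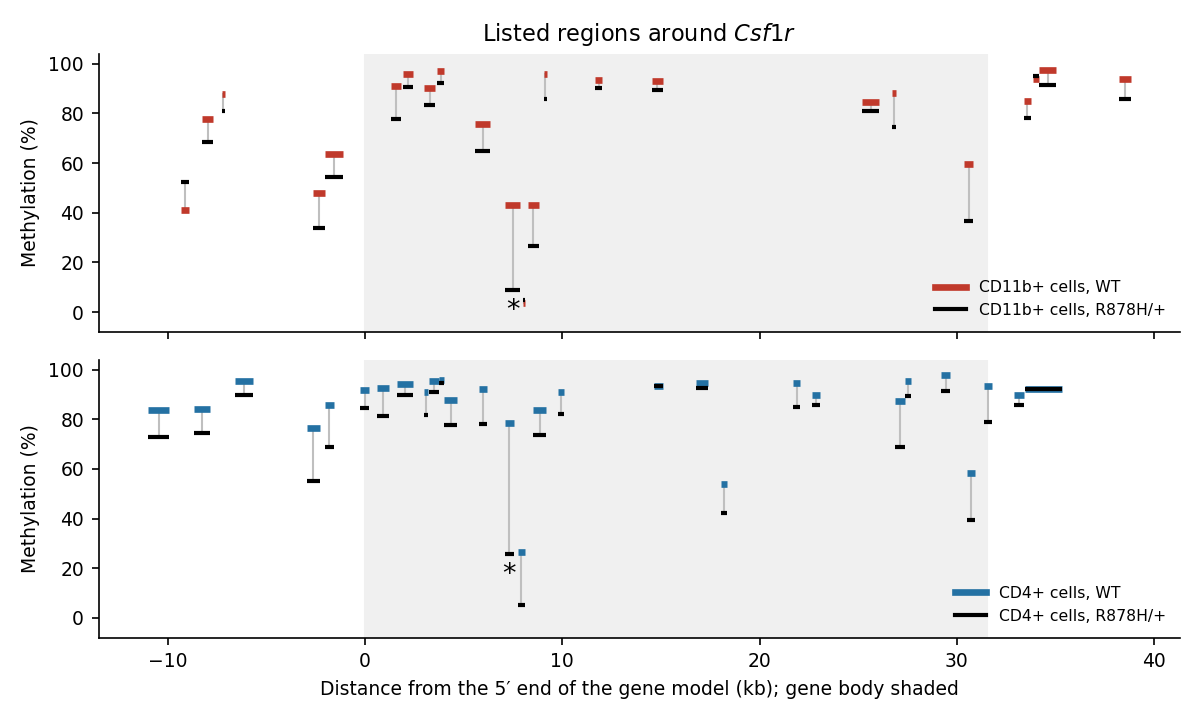
Methylation (%, y axis) of each listed region in the Csf1r window by distance from the 5′ end of the gene model (kb, x axis), CD11b+ above and CD4+ below; coloured bars are WT and black bars R878H/+, a grey line joins the pair, grey shading is the gene body and an asterisk marks a DMR. The DMR lies at 7092 to 7883 bp in CD11b+ and 7092 to 7542 bp in CD4+ cells, beside a region with 3.70% methylation in WT CD11b+ cells.

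Csf3r, the G-CSF receptor of neutrophils and their precursors, lies on chromosome 4 at 126024550-126044440 and differed between the cell types around its start. From 902 to 1516 bp past the 5′ end WT CD11b+ cells had 59.0% and WT CD4+ cells 84.1%. R878H/+ mice had 26.5% and 62.9% there, and the CD11b+ loss of 32.4 points (q-value 1) came from a region of 10 CpG positions, too few for the DMR definition. From -808 to -581 bp the WT levels were 76.1% and 96.7%, and the R878H/+ levels 61.6% and 92.1%. The widest WT gap of the gene was further upstream, from -5356 to -5181 bp, at 40.4% in CD11b+ and 80.8% in CD4+ cells. In R878H/+ mice it was 28.6% against 66.9%. Toward the 3′ end the order was not uniform: from 23650 to 23816 bp, inside the neighbour Mrps15, CD11b+ cells were higher, 84.5% against 67.8%. Over all 11 segments the gene differed by 11.5 points in WT and 13.9 points in R878H/+ mice. In the gene body alone 1 segment remains, the one from 902 to 1516 bp, with 25.1 points. The other listed regions within 1 kb of a start were at 91.0% in WT CD11b+ cells (1 region) and between 88.4% and 97.7% in WT CD4+ cells.

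Fcgr3 encodes a low-affinity Fc receptor for IgG found on neutrophils, macrophages and NK cells, and is read from the minus strand of chromosome 1 at 171051174-171064935. It belongs to a family of similar genes, so reads may be shared with its relatives. From 2918 to 3730 bp past the 5′ end, in an intron, WT CD11b+ cells had 68.8% and CD4+ cells 91.4%. Around an exon from 7217 to 7753 bp the levels were 64.4% and 89.7%, and downstream from 18965 to 19307 bp 56.8% and 86.3%. In R878H/+ mice these stretches had 50.8% and 77.5%, 47.8% and 75.8%, and 39.7% and 76.1%. All 3 pairs thus stayed at least 20 points apart in both genotypes. The intronic sequence printed above, from 4247 to 4354 bp, lost 25.4 points in CD11b+ cells, from 35.4% to 10.0%, with 10 CpG positions and a q-value of 0.67. The CD4+ region that overlaps it, from 4304 to 4490 bp, had the lower level of the pair, 17.2% in WT and 4.90% in R878H/+ mice. This part of the intron was therefore poorly methylated in CD4+ cells too. The widest WT gap of the gene was also of this direction, 49.2% in CD11b+ and 17.2% in CD4+ cells, over the 10 bp from 4481 to 4490 where the edges of a CD11b+ and a CD4+ region meet. Around an inner start, CD11b+ regions from 4481 to 6612 bp had 49.2% and 52.6% in WT and 39.5% and 36.3% in R878H/+ mice, and the CD4+ region from 5302 to 6032 bp had 62.4% and 53.3%. The largest CD4+ loss was 25.3 points, downstream from 19344 to 19573 bp, from a WT level of 55.3% (10 CpG positions, q-value 1). The gene as a whole differed by 8.16 points in WT and 10.2 points in R878H/+ mice.

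Cd14, the lipopolysaccharide co-receptor of monocytes and macrophages, is a short gene on the minus strand of chromosome 18 at 36725067-36726798, and most of its listed regions lie in the flanks. Within its coding sequence 2 neighbouring CD11b+ regions were nearly free of methylation in WT mice. From 404 to 783 bp the levels were 0.781% in WT and 0.0938% in R878H/+ mice. From 833 to 1121 bp, with 16 CpG positions, the level was 0.484% in WT and 38.7% in R878H/+ mice, a gain of 38.2 points with a q-value of 1. A gain of at least 20 points was seen in 0.209% of CD11b+ regions and in this 1 of 125 regions of the windows, and in CD4+ cells in 0.00994% of all regions and in 0 of the 154. How many of the mice show it was not tested, since values per mouse were not given. No CD4+ region overlapped it; the nearest, from 1170 to 1485 bp, had 11.8% in WT and 7.90% in R878H/+ mice. Because of this region the CpG-weighted loss of the Cd14 window in CD11b+ cells was -0.63 points, and 5.39 points without it. Before the start, from -778 to -709 bp, CD11b+ cells went from 79.5% in WT to 73.1% in R878H/+ mice. The largest losses of the window were 12.7 points in CD11b+ cells (70.5% to 57.8%) and 14.2 points in CD4+ cells (76.3% to 62.1%), both upstream. The widest gap between cell types, 54.5% in WT CD11b+ and 87.4% in WT CD4+ cells from -9999 to -9092 bp, lies in the body of Tmco6. Over its 4 shared segments Cd14 differed by 11.1 points in WT mice, and the plain median over them was 4.75 points. All 4 lie upstream, between -9999 and -3536 bp, so none covers the gene itself. The cell types could therefore not be compared in the body of Cd14.

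Among the granule proteins Mpo, the myeloperoxidase of primary granules that makes hypochlorous acid, showed the difference through much of its body. It lies on chromosome 11 at 87793581-87804413, and 16 of its 21 shared segments were lower in WT CD11b+ cells. From 1553 to 1712 bp past the 5′ end the WT level was 20.1% in CD11b+ and 51.8% in CD4+ cells. From 2529 to 2712 bp it was 51.8% and 87.9%. In the coding exon printed above, from 3798 to 4041 bp, CD11b+ cells had 57.9% in WT and 38.5% in R878H/+ mice, while CD4+ cells had 92.8% and 76.4% in its first part and 92.5% and 83.3% in its second. From 6291 to 6384 bp the levels were 67.2% and 91.9% in WT, and from 7522 to 7579 bp 66.2% and 93.8%. From 2529 to 7579 bp the region means at the shared exonic stretches were thus partial in CD11b+ cells and high in CD4+ cells. Each of these stretches made up between 10.8% and 30.9% of its longer region, so that mean mostly describes bases outside it. The CD11b+ region at 2529 to 2712 bp begins at 1883 bp. From 1883 to 2187 bp the WT levels were 51.8% in both cell types. Further along, around inner starts, the cell types were closer, with 85.3% and 86.6% from 8161 to 8366 bp, 67.9% and 77.6% from 8593 to 9330 bp, and 78.6% and 87.8% from 9675 to 9838 bp in WT CD11b+ and CD4+ cells. In the upstream flank the order varied: 86.4% in CD11b+ and 86.0% in CD4+ cells from -6051 to -5518 bp, but 86.4% and 75.6% from -5149 to -4713 bp. The gene-level difference, 15.7 points in WT and 17.1 points in R878H/+ mice, was larger than in 99.3% of genes in WT mice; it was 8.32 points where regions had to overlap each other by at least 50%. No Mpo region was a DMR, and the largest loss was 23.0 points in CD11b+ cells, upstream of the gene, and 23.9 points in CD4+ cells, downstream in the body of Lpo.

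**Figure D5:**
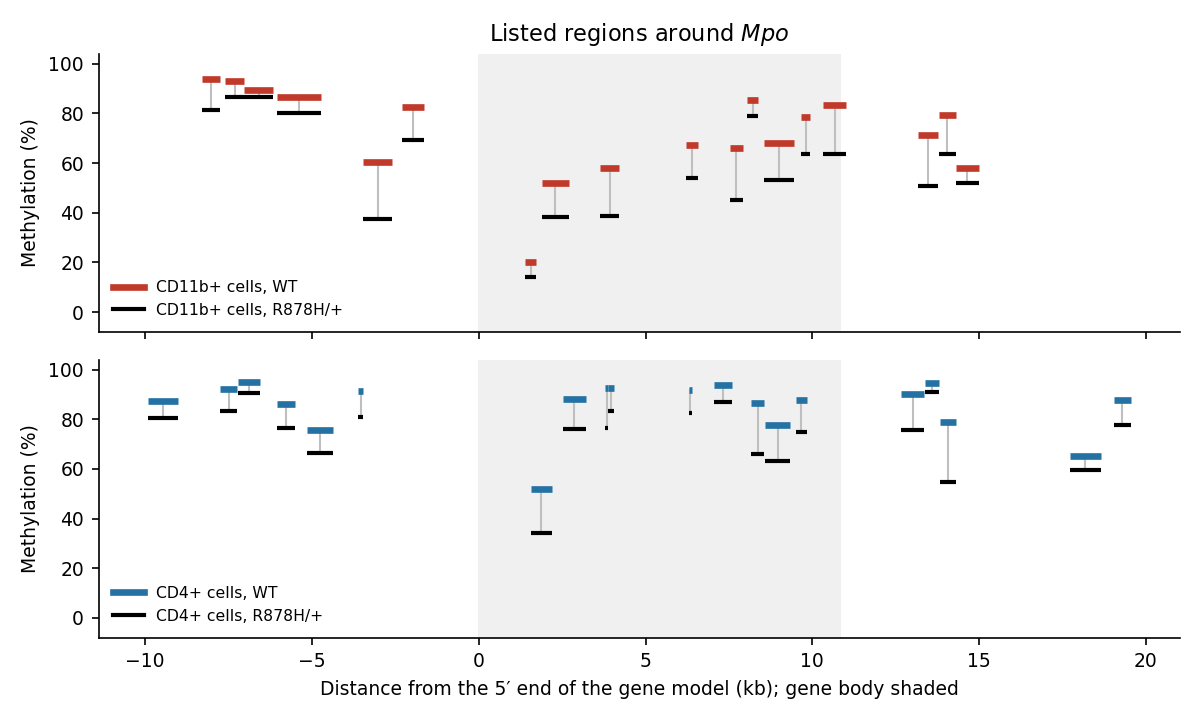
Methylation (%, y axis) of each listed region in the Mpo window by distance from the 5′ end of the gene model (kb, x axis), CD11b+ above and CD4+ below; coloured bars are WT and black bars R878H/+, a grey line joins the pair and grey shading is the gene body. Inside the body the WT CD11b+ bars start at 20.1%, the WT CD4+ bars at 51.8%, and from 2529 bp to 7579 bp the WT CD4+ bars lie between 87.9% and 93.8%.

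Elane encodes neutrophil elastase and sits on chromosome 10 at 79886247-79888215, behind its relative Prtn3. A single CD11b+ region covers the start and most of the body, from -331 to 1342 bp, and went from 64.1% in WT to 39.4% in R878H/+ mice with 29 CpG positions and a q-value of 1. In CD4+ cells 3 regions cover the same stretch. The one across the start had 72.4% and 56.8%, the next, from 500 to 780 bp, 92.6% and 75.1%, and the last, from 827 to 1510 bp, 87.7% and 73.8%. Upstream, inside Prtn3, the printed stretch from -5785 to -5635 bp had 31.3% in WT CD11b+ and 67.5% in WT CD4+ cells, and 7.09% and 33.5% in R878H/+ mice. The mutant CD4+ level there, averaged over a longer region, lay just above the WT CD11b+ level. The widest WT gap of the window, 6.33% in CD11b+ against 67.5% in CD4+ cells, rests on a single base at -5529 bp where regions of the cell types meet. Elane lost more than the other members apart from S100a8 in CD11b+ cells, 16.9 points as a CpG-weighted mean over its regions, and 15.4 points in CD4+ cells. The largest losses were both in the Prtn3 part of the window, 35.9 points in CD11b+ cells (63.8% to 27.9%, q-value 0.90) and 36.0 points in CD4+ cells (71.2% to 35.2%, q-value 1). The WT difference between cell types, 12.8 points, was 21.0 points in the gene body alone and 6.97 points with a 50% overlap of the regions.

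Lyz2, the lysozyme of macrophages and neutrophils whose locus drives a widely used myeloid Cre, did not stand out. It lies on the minus strand of chromosome 10 at 117277331-117282321. Its 8 shared segments averaged 82.6% in WT CD11b+ and 84.4% in WT CD4+ cells, a difference of 1.82 points that exceeds 45.2% of genes and became -6.21 points with a 50% overlap of the regions. No CD11b+ region is listed within 1 kb of its start, the nearest lying 3591 bp away, so the promoter could not be compared. In CD4+ cells the region from -1428 to -401 bp had 89.2% in WT and 73.0% in R878H/+ mice. In the gene itself, from 4145 to 4279 bp, the levels were 84.3% in CD11b+ and 90.8% in CD4+ cells of WT mice. The largest CD11b+ loss of the window was 20.1 points, downstream from 12871 to 13121 bp, from 58.5% to 38.4%. Upstream, from -4054 to -3591 bp, CD11b+ cells were the more methylated, at 74.8% against 54.3%. Lyz1, a near-identical neighbour, may share reads with this gene.

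S100a8, a calcium-binding protein that fills the cytosol of neutrophils together with S100a9, is a short gene on chromosome 3 at 90668978-90670035 with 2 shared segments. In CD11b+ cells 1 region covers nearly the whole gene, from 15 to 937 bp, and went from 63.0% in WT to 37.1% in R878H/+ mice (25 CpG positions, q-value 1). CD4+ cells at 215 to 569 bp had 77.6% and 65.8%. The largest CD4+ loss of the window was 17.6 points, upstream at -8742 bp, from 77.2% to 59.6%. The gap between the cell types was 14.6 points in WT and 28.7 points in R878H/+ mice; whether the genotypes differ in this gap was not tested, since values per mouse were not given. The loss over its 3 CD11b+ regions was 18.8 points, the highest of the 10 genes in that cell type.

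Over the shared segments of the windows the median loss was 11.8 points in both CD11b+ and CD4+ cells, against 7.90 and 8.26 points over all shared segments of the genome. The loss was larger in CD11b+ cells at 58 segments of the windows, and genome-wide at 133633 of 279942. Whether the losses differ between cell types was not tested. At the 27 segments at least 20 points lower in WT CD11b+ cells, the median CD11b+ loss was 16.2 points, from a median WT level of 57.9%. The median CD4+ loss there was 13.9 points, from 87.4%. The same choice among all segments of the genome gave 14.7 points in CD11b+ cells, from 49.6%, and 13.35 points in CD4+ cells, from 81.0%. By position, regions within 1 kb of a start of a coding transcript went from a median of 65.7% to 52.4% in CD11b+ cells (19 regions of 9 genes) and from 87.8% to 72.0% in CD4+ cells (22 regions of 9 genes). Exonic regions had medians of 86.8% and 91.9% in WT CD11b+ and CD4+ cells. The pairs were 88.3% and 90.8% for intronic, 74.6% and 76.3% for upstream, and 88.3% and 89.4% for downstream regions. These medians cover different stretches in the 2 cell types. Within 1 kb of a start, Lyz2 had no CD11b+ region and Cd14 no CD4+ region. Mpo, Fcgr3 and Csf1r each have several starts of coding transcripts, some of them inside the gene.

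Other genes of the same kind gave the same order of the cell types, and T cell genes the opposite. Of 22 other myeloid surface genes, 21 were lower in WT CD11b+ cells, with a median difference of 7.07 points, beside the 74.1% and 2.09 points of all protein-coding genes; Ccr2, a chemokine receptor of inflammatory monocytes, differed by 21.7 points on 1 segment, the lipopeptide receptor Tlr2 by 14.3 points and the cytokine receptor chain Csf2rb by 14.0 points. The exception was Itgal, an integrin chain that T cells also use, at 85.7% in CD11b+ and 83.0% in CD4+ cells. All 13 other granule genes with shared segments were lower in CD11b+ cells, with a median of 6.14 points, led by the serine proteases Ctsg at 20.1 and Prtn3 at 13.4 points; 13 of their 101 segments also lie in windows of the 10 genes. Segments at least 20 points lower in WT CD11b+ cells made up 16.4% of those of the surface genes and 11.9% of those of the granule genes, beside the 6.63% of all segments.

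Of 12 T cell genes, 3 were lower in WT CD11b+ cells (Cd3e, Cd3g and Tcf7) and 9 higher, with a median difference of -4.31 points. Thy1, a surface marker of mouse T cells, had 65.4% in CD11b+ and 44.8% in CD4+ cells, and Cd5, an inhibitory receptor of T cells, 79.9% and 67.4%. Segments at least 20 points lower in WT CD4+ cells made up 25.8% of the 151 of these genes, and segments lower in CD11b+ cells 5.96%, beside 3.38% and 6.63% of all segments. Of 8 B cell genes, 7 were lower in CD11b+ cells, with a median of 4.24 points, and Cr2, a complement receptor of B cells, had 62.6% against 80.6%. The B cell count is near the 74.1% of all genes that were lower in CD11b+ cells. The median of the B cell genes lay above the 2.09 points of all protein-coding genes. Of their 89 segments, 12.4% were at least 20 points lower in WT CD11b+ cells and 4.49% in WT CD4+ cells. The first share is above the background of 6.63%, as was the 11.9% of the other granule genes. The part of other cell types in either fraction was not tested. T cell genes stood lower in the CD4+ fraction and myeloid genes in the CD11b+ fraction, apart from the genes named above as exceptions. The lists were chosen with earlier results of these data known, and B cell genes also leaned to the CD11b+ side. This order is therefore no independent check of the labelled cell types.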

How the data were processed

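The authors isolated DNA from splenic CD11b+ and CD4+ cells, made Zymo-Seq whole-genome bisulfite libraries, aligned them with BISCUIT (mm10) and ran metilene to find regions; tool versions, the caller's settings and the coverage minimum are not given in the sources used here. The DMR definition (more than 10 CpGs, a difference over 20 points, q-value under 0.05) follows the criteria stated by the authors. Per the labels' processing notes mm10 and FastQC were used. The deposited tables hold, for each region and cell type, the authors' group mean methylation in percent and the q-value of the region caller. Their difference and p-value columns were not used, and the difference was recomputed from the means. Every listed region has at least 10 CpG positions, which count the cytosines of both strands separately. Group means of regions with 10 positions are all multiples of 0.025, which is what 4 mice with whole percents would give. Coverage per region is unknown, so no interval could be computed, and stretches that the caller did not list cannot be compared.

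Gene bodies came from GENCODE release 21 for mouse (coordinates 1-based) and were extended by 10 kb. Overlaps needed 1 bp. Gene-level values weight shared segments by their CpGs, and losses weight regions by their CpG positions. No test was run, because the values per mouse were not given. Interval functions were tested on simulated data. Python 3.11.15, pandas 2.3.3 and pysam 0.24.0 were used. The genes, lists and limits were chosen with earlier results of these data known. Of each gene the text names the regions within 1 kb of its starts, some of them by range, the largest loss in each cell type and the widest gap between cell types; further stretches were chosen after their values were seen. For the list genes the examples were those that differed most. Of 23 other surface genes 1 was not analysed here, and of 14 other granule genes 1 has no shared segment. Promoters and sequences are from RefSeq, GRCm38. Alternatives varied the flank, the overlap, the limit in points, the DMR definition and the averaging.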

Additional observations from a re-analysis of the deposited data

How the results depend on the processing

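No paired analysis was possible because the tables hold group means only, and for the same reason no mouse could be left out. Without a q-value limit the windows held 9 DMRs in CD11b+ and 13 in CD4+ cells; with more than 20 CpG positions, or without chromosome 18, both counts were 0. The count of 27 segments at least 20 points lower in WT CD11b+ cells became 15 in gene bodies alone, 9 with a reciprocal overlap of 50% and 12 at 30 points. The R878H/+ count of 26 became 12 in gene bodies alone, 13 with 2 kb flanks, 6 with the reciprocal overlap, 45 at 10 points and 16 at 30 points, and 17 without Mpo, a setting chosen after seeing the data. Of the gene-level values, the WT difference of Lyz2 turned to -6.21 points with the reciprocal overlap, and the Cd14 loss in CD11b+ cells turned from -0.63 to 6.33 points with the plain median and to 5.39 points without the region that gained methylation, the last also chosen after seeing the data. The median R878H/+ difference between cell types, 4.30 points, was 7.54 points in gene bodies alone and 7.80 points with 2 kb flanks. In 45 settings, these included, summaries of the windows stayed within 5 points (medians) or 1.5 times (counts). For the median differences between cell types this limit is too wide to be informative, since a fall to the genome-wide median would also stay within it. Across the settings the WT median ran from 4.19 points (without Mpo) to 6.58 points (segments with at least 5 CpGs). The R878H/+ median ran from 3.30 points (without Mpo) to 7.80 points. Depth limits could not be given.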

Other observations

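The promoters of these genes are poor in CpGs. RefSeq promoter sequences, from 250 bases before to 50 bases after the start, were at hand for 8 of the 10 genes. They held between 1 CpG in Lyz2 and 9 in Csf3r, with a median of 4.5, against a median of 14 over 16522 promoters. The letters GAGGAA, the core bound by the myeloid factor PU.1, occurred on either strand in 6 of the 8, and in 27.2% of all promoters. A C/EBP site spelled TTGCNNAA occurred in 1 of the 8, that of Fcgr3, and in 10.0% of all promoters. These matches are descriptions of letters and say nothing of binding.

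DMRs also lay in windows of related genes. In the Ncf1 window, a subunit of the phagocyte NADPH oxidase, a CD4+ region inside the gene went from 76.5% in WT to 19.8% in R878H/+ mice (q-value 0.00031) and its neighbour from 38.8% to 10.3% (q-value 0.00052). In CD11b+ cells a region 7605 bp outside the gene went from 81.6% to 57.4% (q-value 0.0096). Cxcr2, a chemokine receptor of neutrophils, had 1 in CD11b+ cells, from 31.8% to 9.12% (q-value 0.021). The window of Cd68, a macrophage lysosomal protein, had 2 in CD4+ cells, 8594 and 8460 bp from the gene, from 69.2% to 16.6% and from 69.1% to 32.5%. All of these were losses. The surface list held 1 DMR among 309 CD11b+ regions (0.324%) and 2 among 453 CD4+ regions (0.442%), the granule list 1 among 124 (0.806%) and 2 among 173 (1.16%), beside backgrounds of 0.576% and 0.665%.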
